A study of Mus musculus with 8 samples.

Results

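The genes described here encode the phase II conjugation enzymes of the mouse liver, which were the genes whose symbol names a UDP-glucuronosyltransferase of the Ugt1a, Ugt2a or Ugt2b group, a glutathione S-transferase, a microsomal glutathione S-transferase or a sulfotransferase. These 65 genes of the 55487 genes counted fell into 5 families, with 9 Ugt1a genes, 10 Ugt2a and Ugt2b genes, 22 soluble glutathione S-transferase (Gst) genes, 3 microsomal (Mgst) genes and 21 sulfotransferase (Sult) genes. Messenger RNA was sequenced from whole livers of 4 Control mice, numbered 154, 159, 181 and 193, and 4 Mc1r LKO mice, numbered 141, 156, 157 and 182. All were male, started on a cholesterol-rich Western diet at 8 weeks of age and ate it for 12 weeks. The Mc1r LKO mice carried a floxed melanocortin 1 receptor allele on both chromosomes (Mc1r fl/fl) together with an Alb-Cre transgene, in which the albumin promoter drives Cre in hepatocytes, and the Control mice were age-matched Mc1r fl/fl animals without the transgene. Since Cre was present in 1 genotype only, its presence and the loss of Mc1r cannot be told apart. The comparison asks how loss of the receptor from hepatocytes changes the liver transcriptome under this diet.

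Phase II enzymes attach a water-soluble group to drugs, hormones, bilirubin, bile acids and reactive lipids, which are then exported into bile or blood. UDP-glucuronosyltransferases sit in the endoplasmic reticulum and transfer glucuronic acid, glutathione S-transferases couple electrophiles to glutathione, and sulfotransferases move sulfate from the donor PAPS onto hydroxyl groups. In hepatocytes many of these genes are controlled by the nuclear receptors CAR and PXR, by the aryl hydrocarbon receptor, which binds xenobiotic response elements, and by Nrf2, which binds antioxidant response elements.

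Total counts were between 10773151 and 24763375 read pairs per mouse, and a gene with no count could still have had up to 3, which corresponded to between 0.121 and 0.278 CPM, the count scaled to the size of the library. The targeted gene Mc1r had 0 counts in all 8 livers, and the deletion could therefore not be checked in these data. The 5 hepatocyte markers summed to between 68145 and 100086 CPM, while 4 of 5 pancreas markers (Prss2, Cpa1, Ctrb1 and Pnlip) were at 0 in every liver. The exons behind the counts have to be known before the Ugt1a genes can be read, and their sequences are therefore shown before the values.

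The 9 Ugt1a genes lie in tandem on the plus strand of chromosome 1 (GRCm38) and splice their own first exon to the same 4 downstream exons. These common exons lie at chr1:88215044-88215175, chr1:88215795-88215882, chr1:88216138-88216357 and chr1:88218127-88218997. The 30 bases on either side of the first splice junction, taken from GENCODE transcripts of GRCm38, are given with the common exon in capitals. They are shown for the 6 genes with enough counts to be tested. They mark where the transcripts of the genes differ and where they become the same.
Ugt1a1: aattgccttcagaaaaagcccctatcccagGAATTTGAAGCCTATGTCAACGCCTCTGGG
Ugt1a5: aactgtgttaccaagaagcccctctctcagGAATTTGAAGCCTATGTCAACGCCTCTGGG
Ugt1a6a: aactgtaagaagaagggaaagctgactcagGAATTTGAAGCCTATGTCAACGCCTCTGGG
Ugt1a6b: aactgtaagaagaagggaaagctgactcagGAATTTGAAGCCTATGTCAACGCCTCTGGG
Ugt1a7c: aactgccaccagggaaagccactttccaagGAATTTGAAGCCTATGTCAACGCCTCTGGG
Ugt1a9: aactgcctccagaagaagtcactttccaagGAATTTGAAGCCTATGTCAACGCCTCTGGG

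Each junction has the same 30 bases on its common side. Ugt1a6a and Ugt1a6b are also identical on the upstream side. Compared from the splice site backwards, they share 833 of the last 859 bases (97.0%). Over 938 bases, the length of the Ugt1a6b first exon, they share 890 (94.9%). A read pair that lies on the common exons alone belongs to all 9 genes at once, and the counting gave such a pair to none of them.

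**Figure D1:**
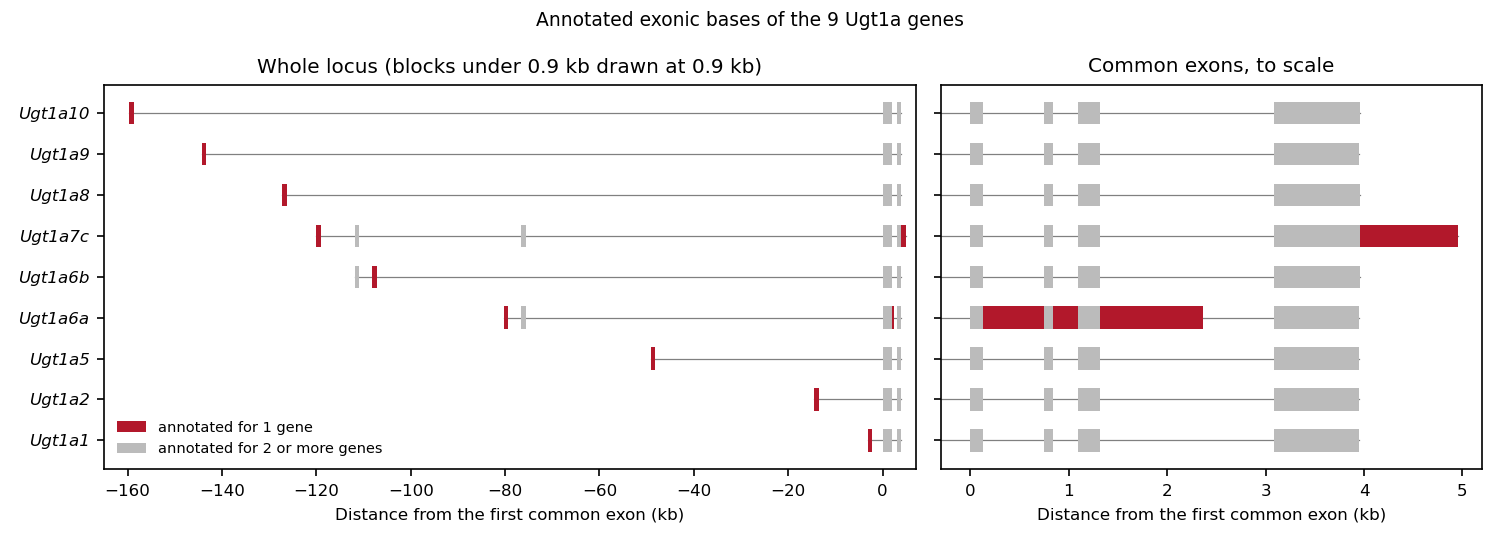
Exonic bases annotated for each of the 9 Ugt1a genes, drawn as distance in kilobases from the start of the first common exon, with the whole locus on the left and the common exons on the right. Red blocks are annotated for 1 gene and grey blocks for 2 or more. For Ugt1a6a, 1920 of the 2142 red bases lie between the grey common exons, whereas Ugt1a1, with 913 red bases, has them all upstream.

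For Ugt1a1, Ugt1a5, Ugt1a6b and Ugt1a9 the bases annotated for that gene alone were those of the first exon, between 879 and 938 bases. Ugt1a6a differed from these genes. Of the exon that it splices to the common exons, the 859 bases at chr1:88138473-88139331 are also annotated for Ugt1a7c. This leaves only 222 bases upstream of the common exons that belong to Ugt1a6a alone. A further 1920 bases (89.6% of its 2142 unshared bases) come from an annotated transcript of Ugt1a6a that retains the introns between the common exons, at chr1:88215176-88215794, chr1:88215883-88216137 and chr1:88216358-88217403. Unspliced RNA of any of the 9 genes holds these intron bases, so RNA from the Ugt1a6a promoter and unspliced RNA from another Ugt1a promoter cannot be told apart in this gene's count.

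Conjugation enzyme genes took 1.38% ± 0.111 (SD, n = 4) of all counts in Control livers and 1.38% ± 0.0938 (SD, n = 4) in Mc1r LKO livers. Levels were compared between genes in TPM, a level per length that divides the count by the exonic length of the gene and scales each liver to the same total. Mgst1, a glutathione transferase of the endoplasmic reticulum and outer mitochondrial membrane, had the highest mean level with 4988 TPM over the 8 mice. Gstm1, the main mu class enzyme, followed at 4041 TPM. The next levels were those of Gsta3 at 750 TPM, an alpha class enzyme known for inactivating aflatoxin epoxide, and of Ugt2b5 and Ugt2b36 at 692 TPM each. Among sulfotransferases, the phenol sulfotransferase Sult1a1 had the highest level with 336 TPM.

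**Figure D2:**
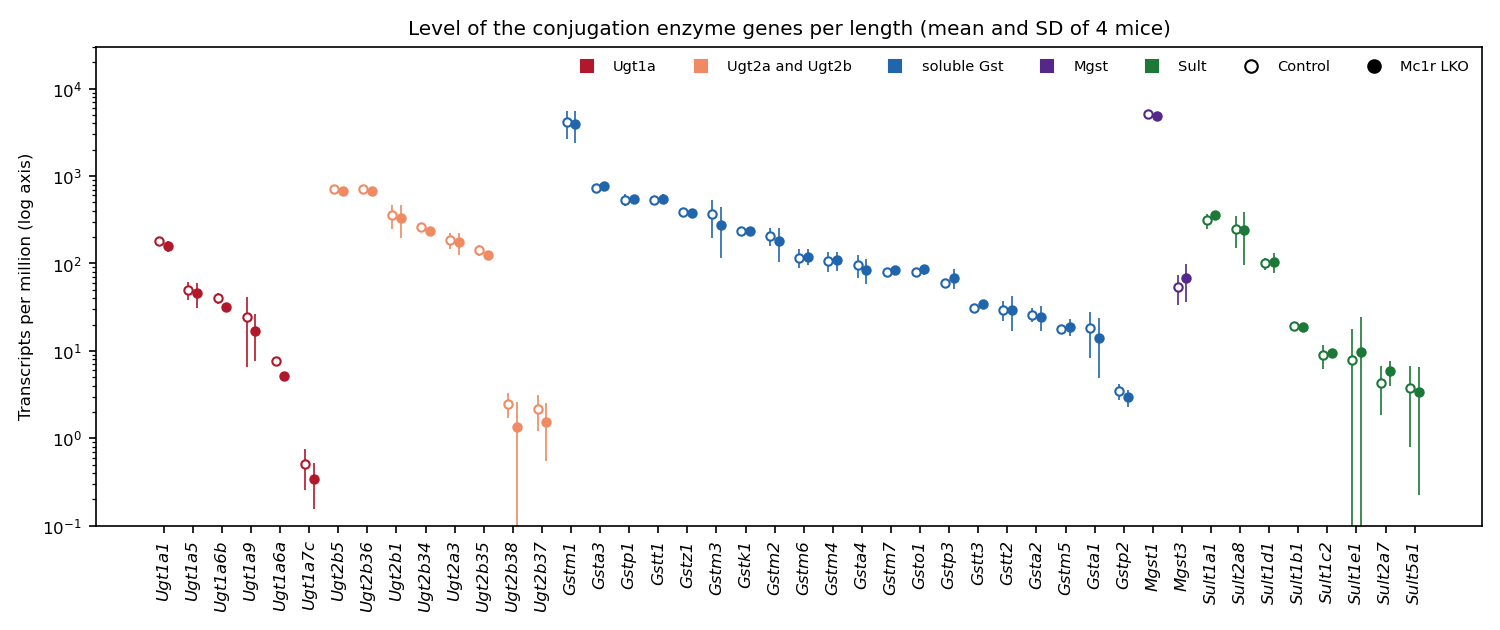
Level of the 44 conjugation enzyme genes kept for testing, in TPM on a log axis, with open points for Control and filled points for Mc1r LKO livers and bars for the SD of 4 mice. Bars that reach the lower edge are cut there. Mean levels run from 0.421 for Ugt1a7c to 4988 for Mgst1, and the points of the genotypes lie close together within most genes.

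Of the 65 genes, 44 passed the filter on low counts, and the remaining 21 did not. Of the latter, 9 had no count in any liver, namely Ugt2a1, Ugt2a2, Sult1c1, Sult2a1, Sult2a4, Sult2a5, Sult2a6, Sult6b1 and Sult6b2. Ugt2a1 and Ugt2a2 share 98.8% and 94.5% of their exonic bases with other genes of the same strand, so a count of 0 for them says little about their RNA. The other 12 genes outside the filter reached at most 11 counts in any liver. They were Ugt1a2, Ugt1a8, Ugt1a10, Gsto2, Gstt4, Mgst2, Sult2a2, Sult2a3, Sult2b1, Sult3a1, Sult3a2 and Sult4a1. Of 21 Sult genes only 8 were therefore tested, against 20 of 22 soluble Gst genes.

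No conjugation enzyme gene passed an adjusted p of 0.05 (edgeR quasi-likelihood test, Benjamini-Hochberg over the 13400 genes tested), and the smallest adjusted p among them was 0.734. The background for this count was 0% of the 13400 genes. DESeq2 and limma-voom also called 0 of the 44 genes, with a smallest adjusted p of 0.0697 and 0.695. At an unadjusted p under 0.05, 2 of the 44 genes passed in edgeR, as did 901 of the 13400. When the log2 fold change also had to reach 0.25 in size, 1 gene (Gstt3) was higher in Mc1r LKO livers, against 2.64% of all genes tested, and 1 gene (Ugt1a6a) was lower, against 2.66%. In Gsta3 every Mc1r LKO liver was above every Control liver, a pattern seen in 2.63% of all genes tested, and in Ugt1a6a every Mc1r LKO liver was below every Control liver, as in 1.54% of all genes. Single genes out of 44 are near these background shares.

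**Figure D3:**
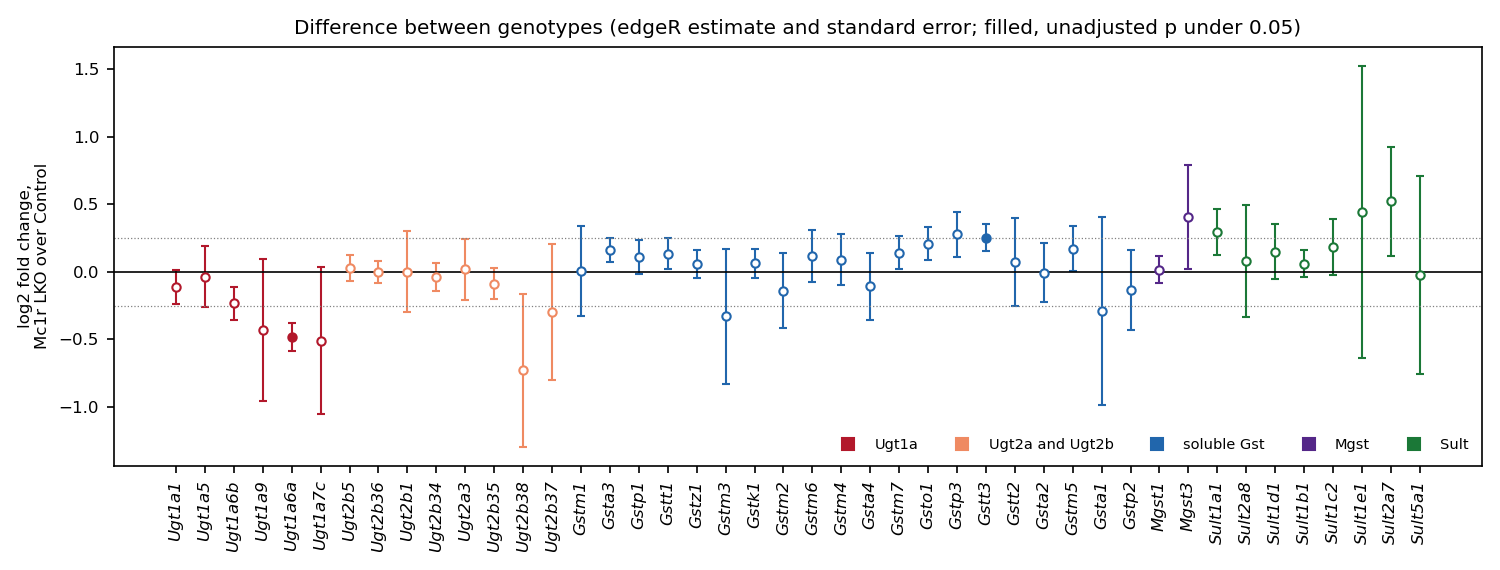
Log2 fold change of Mc1r LKO over Control for the 44 genes tested, as the edgeR estimate with its standard error, ordered by family and by level within a family, with dotted lines at 0.25 and -0.25. Filled points mark an unadjusted p under 0.05, which only Ugt1a6a (-0.48) and Gstt3 (0.25) reached. All 6 Ugt1a points lie below 0.

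The median estimates differed in sign between families, and none of these medians was tested. All 6 tested Ugt1a genes had a log2 fold change below 0, with a median of -0.33 that stayed below 0 under each scaling and without any 1 mouse, although Ugt1a5 and Ugt1a9 turned above 0 in some of the fits without 1 mouse. The 8 tested Ugt2a and Ugt2b genes had a median of -0.02, with 3 above 0 and 5 below. Among soluble Gst genes 14 were above 0 and 6 below, with a median of 0.08. Both tested Mgst genes were above 0, at 0.02 and 0.41 (Mgst1 turned to -0.02 when scaled by total count alone), and 7 of the 8 Sult genes were above 0, with a median of 0.17. The median was 0.03 over the 44 genes and -0.01 over all genes tested. In a whole liver, fewer cells of a type and less RNA per cell cannot be told apart.

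Ugt1a6a, one of the paired Ugt1a6 genes whose enzymes act on simple phenols, was measured at 13.0, 13.7, 13.7 and 13.4 CPM in Control mice 154, 159, 181 and 193. In Mc1r LKO mice 141, 156, 157 and 182 it was at 9.20, 10.5, 9.57 and 9.20 CPM. The 2 genotypes did not overlap, and the replicates lay close together, with 13.4 ± 0.301 CPM in Control and 9.62 ± 0.628 CPM in Mc1r LKO (SD, n = 4). The log2 fold change was -0.48 ± 0.10 (SE), with an unadjusted edgeR p of 0.000917 and an adjusted p of 0.734. Its counts ran from 133 to 328 read pairs per liver, most of the bases that can receive them being introns between the common exons. At counts this low, how close the 4 values of a genotype lie is itself subject to counting noise. That closeness was not tested and is no measure of how repeatable the level is. With any 1 mouse left out, the log2 fold change stayed between -0.52 and -0.45 (unadjusted edgeR p between 0.00114 and 0.0037). Because Ugt1a6a was named for its unadjusted p and lack of overlap in these same livers, such refits are not independent support.

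The 250 bases before the annotated start of Ugt1a6a (RefSeq, GRCm38.p6, plus strand, chr1:88134559-88134808) are shown because 127 of the 222 upstream bases that count for this gene alone, at chr1:88134809-88134935, begin where this window ends.
Ugt1a6a: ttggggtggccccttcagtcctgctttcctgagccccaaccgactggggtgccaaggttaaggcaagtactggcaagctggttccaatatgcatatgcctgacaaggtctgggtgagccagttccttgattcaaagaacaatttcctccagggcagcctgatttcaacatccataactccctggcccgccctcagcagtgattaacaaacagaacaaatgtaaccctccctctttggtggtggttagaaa
Neither the antioxidant response element core TGACNNNGC nor the xenobiotic response element core TNGCGTG occurred in it on either strand.

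Ugt1a6b, which differs from Ugt1a6a at few bases, was read on its own 938-base first exon. Of its 100-base windows, those on the common exons included, 70.9% occur in transcripts of other genes. Pairs on part of the first exon may therefore align to Ugt1a6a as well and be counted for neither. It stood at 33.2, 35.2, 44.2 and 41.9 CPM in Control mice 154, 159, 181 and 193, and at 33.1, 27.6, 35.1 and 35.8 CPM in Mc1r LKO mice 141, 156, 157 and 182. The genotypes overlapped, and the log2 fold change of -0.23 ± 0.12 (SE) had an unadjusted edgeR p of 0.083. It passed the unadjusted p and fold limits with total counts (log2 fold change -0.28 ± 0.12 SE), with 1 surrogate variable (-0.27 ± 0.11 SE) and without Control mouse 154 (-0.29 ± 0.13 SE). Ugt1a1, the enzyme that conjugates bilirubin, had the highest Ugt1a level. It was at 153, 144, 183 and 170 CPM in Control and 168, 120, 144 and 170 CPM in Mc1r LKO livers, in the same order of mice. These ranges largely coincided (log2 fold change -0.11 ± 0.13 SE, edgeR adjusted p = 0.911).

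**Figure D4:**
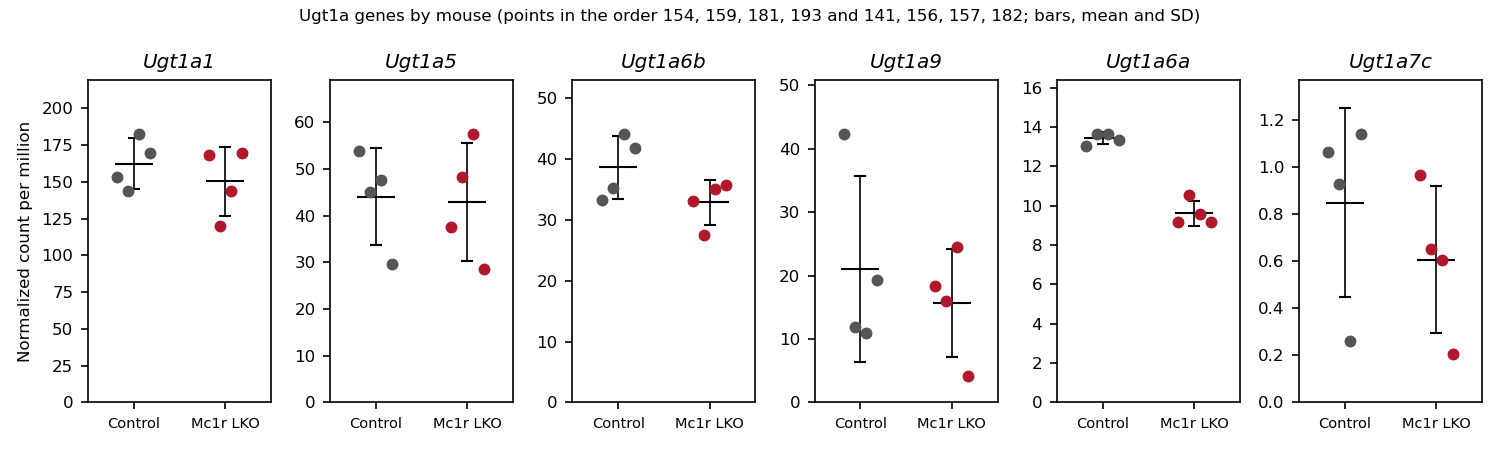
Normalized counts (CPM) of the 6 tested Ugt1a genes in each liver, with 4 points per genotype, and bars for the mean and SD. The axis of each panel starts at 0. In Ugt1a6a the Control points sit between 13.0 and 13.7 and the Mc1r LKO points between 9.20 and 10.5, while the points overlap in the other 5 genes.

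The remaining Ugt1a genes were more variable. Ugt1a5 ranged from 29.6 to 53.9 CPM in Control and from 28.5 to 57.5 CPM in Mc1r LKO livers, with a log2 fold change of -0.03 ± 0.23 (SE). Ugt1a9, which also acts on phenols, ran from 10.9 to 42.4 CPM in Control livers, where mouse 154 was the highest, and from 4.19 to 24.5 CPM in Mc1r LKO livers, where mouse 182 was the lowest (log2 fold change -0.43 ± 0.52 SE). Ugt1a7c was close to the limit of counting, at 4 to 28 read pairs per liver (log2 fold change -0.51 ± 0.55 SE). None of these genes passed an unadjusted p of 0.05. TPM divide by the whole exonic length, which includes the common exons, where a pair lying on them alone was given to no gene. The Ugt1a levels were therefore also computed on the unshared bases alone. The mean of Ugt1a1 was then 410 in place of 168 TPM, that of Ugt1a5 was 117 in place of 47.4 TPM, that of Ugt1a6b was 91.4 in place of 36.0 TPM, and that of Ugt1a6a was 13.0 in place of 6.43 TPM. The order of these 4 genes was the same on either length. A pair that reaches from a first exon into a common exon may still have been counted. The unshared length would then be too short, and the level computed on it too high.

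The Ugt2b genes, whose enzymes conjugate steroids and bile acids among other substrates, included the steadiest members. Ugt2b36 was at 611, 596, 613 and 564 CPM in Control mice 154, 159, 181 and 193, and at 596, 561, 594 and 632 CPM in Mc1r LKO mice 141, 156, 157 and 182. Its highest liver was only 1.13 times its lowest, and the log2 fold change was -0.00 ± 0.08 (SE). Ugt2b5 behaved likewise, from 493 to 557 CPM in Control and from 468 to 587 CPM in Mc1r LKO livers (log2 fold change 0.03 ± 0.10 SE). Ugt2b1 was instead at 295, 313, 554 and 338 CPM in Control and at 307, 281, 270 and 643 CPM in Mc1r LKO livers. Control mouse 181 and Mc1r LKO mouse 182 were thus both well above the other 6 livers, and the log2 fold change between genotypes was 0.00 ± 0.30 (SE). Ugt2b38, a gene of low level, was at 1.22, 2.88, 1.88 and 1.75 CPM in Control and at 0.484, 0.715, 0.525 and 2.81 CPM in Mc1r LKO livers. Mouse 182 stood alone among the latter (log2 fold change -0.73 ± 0.56 SE, edgeR adjusted p = 0.864). Without mouse 182 the log2 fold change was -1.72 ± 0.40 (SE, edgeR adjusted p = 0.574). With 1 surrogate variable it was -1.27 ± 0.47 (SE, edgeR adjusted p = 0.396), and both fits were past the unadjusted p and fold limits. Ugt2b38 had only 7 to 55 counts per liver. Of its windows, taken as for Ugt1a6b, 24.2% occur in transcripts of Ugt2b37 or Ugt2b5. Pairs there may align to several genes and be counted for none. Whether pairs of the far more abundant Ugt2b5 entered the count of Ugt2b38 was not tested.

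Soluble glutathione S-transferases were the largest family. Gsta3 was at 1206, 1304, 1356 and 1288 CPM in Control mice 154, 159, 181 and 193, and at 1462, 1368, 1378 and 1551 CPM in Mc1r LKO mice 141, 156, 157 and 182. The highest Control liver was just below the lowest Mc1r LKO liver, so that the genotypes did not overlap by a narrow margin. The log2 fold change was 0.16 ± 0.09 (SE), with an unadjusted edgeR p of 0.103. An exact two-sided permutation test of the difference of means gave p = 0.0286 (n = 4 per genotype), which was not adjusted for the number of genes. This is the smallest value that 4 against 4 mice allow, and every gene without overlap gives it. Because Gsta3 was named for its lack of overlap, the value only restates that separation.

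The 250 bases before the start of Gsta3 (RefSeq, GRCm38.p6, plus strand, chr1:21240335-21240584) and of Mgst1 (plus strand, chr6:138140277-138140526), the most abundant member, are shown because each holds a match to the antioxidant response element core TGACNNNGC, in capitals. In Mgst1 the match reads on the opposite strand.
Gsta3: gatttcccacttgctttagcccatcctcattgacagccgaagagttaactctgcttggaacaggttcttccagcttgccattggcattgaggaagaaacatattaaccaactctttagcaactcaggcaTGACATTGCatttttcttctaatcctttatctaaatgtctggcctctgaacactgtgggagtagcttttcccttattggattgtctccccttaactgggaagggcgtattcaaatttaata
Mgst1: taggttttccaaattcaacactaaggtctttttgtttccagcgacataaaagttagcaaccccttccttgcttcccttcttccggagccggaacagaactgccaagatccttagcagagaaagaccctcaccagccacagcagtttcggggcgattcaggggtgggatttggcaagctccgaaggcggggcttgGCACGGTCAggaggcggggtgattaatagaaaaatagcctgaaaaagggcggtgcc
The match lies 121 to 113 bases before the RefSeq start in Gsta3 and 56 to 48 bases before it in Mgst1. In the annotation used for counting, Mgst1 begins at chr6:138140316, inside the window shown and before the match. A second RefSeq window of Mgst1 (chr6:138141337-138141586) held no match. Windows of this length held the core TGACNNNGC, on either strand, in 10.2% of 32851 RefSeq promoters (11.5% of 27025 gene symbols, counted by symbol with any promoter holding it) and in 4 of the 58 member genes that had a promoter in the table (Gsta3, Gstm5, Gstm7 and Mgst1), or 6.9% of these members. The core TNGCGTG was held by 4.1% of promoters, by 4.76% of symbols and by 3 members (5.17%, Gsta2, Sult1d1 and Ugt1a5). No member held both motifs.

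Gstt3, a theta class enzyme, was at 45.7, 48.4, 54.8 and 43.2 CPM in Control and at 50.9, 62.1, 59.3 and 56.7 CPM in Mc1r LKO livers, in the same order of mice. Only Control mouse 181 lay within the Mc1r LKO range. The log2 fold change was 0.25 ± 0.10 (SE), with an unadjusted edgeR p of 0.0292 and an adjusted p of 0.734. This call at the unadjusted p was lost without Control mouse 154 or 193 or without Mc1r LKO mouse 156 or 157, with log2 fold changes between 0.21 and 0.24. Gstt3 also shares 13.6% of its exonic bases with the annotated gene Gm20441. The other tested theta genes, Gstt1 and Gstt2, had log2 fold changes of 0.14 ± 0.12 and 0.07 ± 0.32 (SE).

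In the mu class, which is encoded by a cluster on chromosome 3, Gstm1 and Gstm3 varied between mice more than between genotypes. Gstm1 was at 3232, 3065, 1366 and 2196 CPM in Control mice 154, 159, 181 and 193, and at 2589, 3217, 2964 and 1129 CPM in Mc1r LKO mice 141, 156, 157 and 182. Mice 181 and 182 had the lowest levels, 1 of each genotype, and the log2 fold change was 0.01 ± 0.33 (SE). Gstm3 followed the same order at its low end, with 97.9 CPM in mouse 181 and 36.0 CPM in mouse 182 against 140 to 289 CPM in the other 6 livers. Mice 181 and 182 also had the lowest levels in Gstm4 and Gstm5, but not in Gstm2, Gstm6 or Gstm7. In Gstm7 mouse 182 was the highest liver, at 66.6 CPM. Gsta1, an alpha class gene, was at 10.0, 9.48, 1.72 and 6.93 CPM in Control and at 5.74, 8.71, 8.08 and 0.409 CPM in Mc1r LKO livers, a ratio of 24.6 between the highest and the lowest liver. Of its 100-base windows 80.6% occur in transcripts of other genes, Gsta2 among them, so its count covers only part of the transcript. Gstp1, the pi class enzyme that is abundant in male mouse liver, ranged from 277 to 409 CPM in Control and from 324 to 385 CPM in Mc1r LKO livers (log2 fold change 0.11 ± 0.13 SE). It shares 25.1% of its windows with other transcripts, its neighbour Gstp2 included.

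Among the microsomal enzymes, Mgst1 was at 3795, 4731, 4210 and 3970 CPM in Control mice 154, 159, 181 and 193, and at 4357, 4142, 4085 and 4326 CPM in Mc1r LKO mice 141, 156, 157 and 182. All Mc1r LKO values fell inside the Control range, with a log2 fold change of 0.02 ± 0.10 (SE). Mgst3, which reduces lipid hydroperoxides, was at 30.5, 29.5, 12.0 and 22.7 CPM in Control and at 39.6, 41.8, 32.7 and 11.1 CPM in Mc1r LKO livers. Mice 181 and 182 were again the lowest of their genotypes. The log2 fold change was 0.41 ± 0.39 (SE, edgeR adjusted p = 0.897), and it was 0.48 ± 0.14 (SE, edgeR adjusted p = 0.662) with both of these mice left out, a setting chosen after their values were seen. Mgst2 had at most 4 counts in a liver and was not tested.

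Sulfotransferases had the widest spread between mice of the 5 families, with a median SD within genotypes of 0.49 on the log2 CPM scale against 0.32 over all 44 genes and 0.23 over all genes tested. Sult1a1 was at 180, 255, 189 and 142 CPM in Control and at 210, 230, 218 and 285 CPM in Mc1r LKO livers. Control mouse 159 lay within the Mc1r LKO range and the other 3 Control mice below it (log2 fold change 0.30 ± 0.17 SE, edgeR adjusted p = 0.799). Without mouse 159 the log2 fold change was 0.47 ± 0.14 (SE, edgeR adjusted p = 0.528), past the unadjusted p and fold limits. Sult2a8, a hepatic enzyme that sulfates bile acids, was at 178, 337, 517 and 307 CPM in Control and at 210, 231, 265 and 707 CPM in Mc1r LKO livers. Sult1e1, which inactivates estrogens, was at 0.744, 3.25, 11.5 and 0.856 CPM in Control and at 1.11, 0.585, 2.14 and 18.2 CPM in Mc1r LKO livers, and its highest liver was 31.1 times its lowest. In both genes mice 181 and 182 were the highest, and neither passed an unadjusted p of 0.05 (log2 fold changes 0.08 ± 0.41 and 0.44 ± 1.08 SE). Sult1d1, which acts on catecholamines and other phenols, ran from 79.3 to 125 CPM in Control and from 86.7 to 161 CPM in Mc1r LKO livers, with the same 2 mice on top.

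Control mouse 181 and Mc1r LKO mouse 182 thus stood together in several families. Over all 28 pairs of mice, this pair held the 2 lowest values in 12 of the 44 genes and the 2 highest in 10. No other pair held the 2 lowest values in more than 7 genes (mice 154 and 193) or the 2 highest in more than 4 (mice 159 and 182). The 12 genes were Gsta1, Gsta2, Gsta4, Gstm1, Gstm3, Gstm4, Gstm5, Gstp3, Gstt2, Mgst3, Ugt1a7c and Ugt1a9, and the 10 were Gstk1, Gstz1, Sult1d1, Sult1e1, Sult2a7, Sult2a8, Sult5a1, Ugt2a3, Ugt2b1 and Ugt2b36. The shares of 27.3% and 22.7% compare with 11.7% and 12.6% of the 13400 genes for the same pair, and with at most 5.49% and 6.96% of all genes for any other pair. These shares describe the livers and were not tested.

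**Figure D5:**
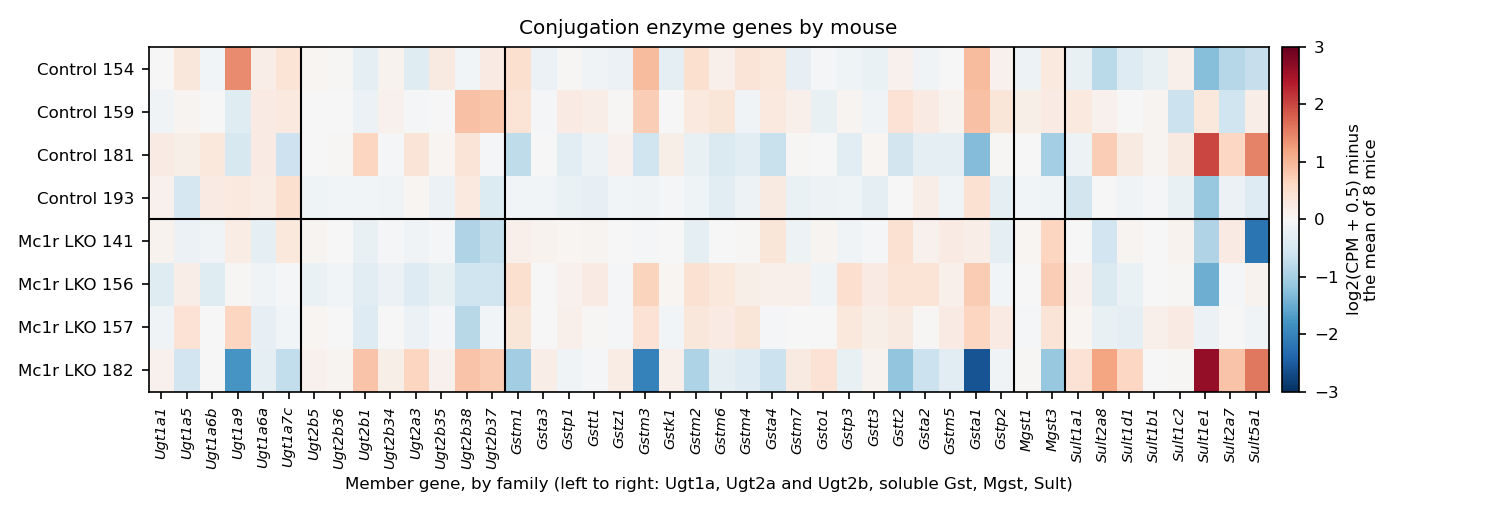
Log2(CPM + 0.5) of the 44 tested genes in each liver, minus the mean of the 8 livers, with mice in rows (Control above the line, Mc1r LKO below) and genes in columns by family. Control 181 and Mc1r LKO 182 share blue cells among the soluble Gst genes, where Gstm1 was 1366 and 1129 CPM, and red cells among the Sult genes, where Sult1e1 was 11.5 and 18.2 CPM.

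Summed over the family, soluble Gst genes took 0.483% of the counts in mouse 181 and 0.455% in mouse 182, against 0.603% to 0.738% in the other 6 livers. Sult genes took 0.0866% and 0.111%, against 0.0485% to 0.0733%. The soluble Gst sum was in large part Gstm1, at 1366 and 1129 CPM in mice 181 and 182 against 2196 to 3232 CPM elsewhere. Gstk1 and Gstz1 went the other way, with mice 181 and 182 the highest. The Sult sum was in large part Sult2a8, at 517 and 707 CPM against 178 to 337 CPM elsewhere. Neither sum therefore stands for every member of its family. Some marker sums of other cell types were also low in mice 181 and 182. Mouse 182 had the lowest summed level of the 6 cholangiocyte markers (29.8 CPM), of the 6 sinusoidal endothelial markers (126 CPM) and of the 6 stellate cell markers (228 CPM), and mouse 181 the second lowest of each (59.7, 171 and 252 CPM). Cholangiocyte markers otherwise ranged from 93.0 to 255 CPM, endothelial markers from 176 to 206 CPM and stellate markers from 328 to 509 CPM. The cholangiocyte sum was mostly Spp1, at 16.8 CPM in mouse 182 and 49.1 CPM in mouse 181 against 84.1 to 239 CPM elsewhere, whereas Sox9 was highest in mouse 182 (9.96 CPM) and Krt19 was at 2.04 CPM in mouse 182 and 1.51 CPM in mouse 181, within the range of the other 6. Clec4g, Lyve1 and Gpr182 followed the endothelial sum in both mice. Stab2 (49.0 CPM), Kdr (31.3 CPM) and Pecam1 (22.8 CPM) in mouse 181 instead lay within the range of the other 6 livers. Lrat, Dcn, Col1a1 and Col3a1 followed the stellate sum. Reln was instead lowest in mouse 159 (33.4 CPM), and Des was lower in mouse 157 (5.33 CPM) than in mouse 182 (5.47 CPM). The 6 Kupffer cell markers summed to 158 CPM in mouse 182, the lowest, and to 226 CPM in mouse 181, above Mc1r LKO mouse 141 (208 CPM). The 5 hepatocyte markers summed to 100086 CPM in mouse 182, the highest, and to 79580 CPM in mouse 181, below Control mouse 159 (85950 CPM). This sum was mostly Alb (51819 to 74793 CPM). In Alb, Apoa1 and Ttr mouse 181 lay within the range of the other 6 livers. Mice 181 and 182 were the highest in Cps1 (1787 and 2804 CPM, against 743 to 1321) and in Serpina1c (1932 and 3948 CPM, against 1095 to 1715). The part of these markers in the levels of the conjugation enzymes was not tested. Total counts were 19808369 in mouse 181 and 21491021 in mouse 182, against 10773151 to 24763375 in the other 6.

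With both mice left out, 2 of the 44 genes were higher in Mc1r LKO livers (Gstt3 and Mgst3) and 2 lower (Ugt1a6a and Ugt2b38) at the unadjusted p and fold limits, and none passed an adjusted p of 0.05. Of the 13385 genes tested in that fit, 3.26% were higher and 3.2% lower at these limits. Groups of 3 mice did not overlap in 7 genes, 5 of them higher (Gsta3, Gstm5, Gstt3, Mgst3 and Sult2a7) and 2 lower (Ugt1a6a and Ugt2b38). The same counts over all genes tested were then 7% and 5.89%.

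The other genes of the pathway were taken from lists of suppliers, transporters and regulators. None of the 7 tested genes of UDP-glucuronic acid supply and glucuronide cleavage, of the 9 tested genes of glutathione synthesis and recycling or of the 9 tested genes of PAPS supply and sulfate release passed an unadjusted p of 0.05. Ugp2, which makes UDP-glucose, was at 616 ± 139 CPM in Control and 617 ± 41.3 CPM in Mc1r LKO livers (SD, n = 4). Gclc, the catalytic subunit of the limiting enzyme of glutathione synthesis, was at 548 ± 99.9 and 527 ± 65.9 CPM, and Papss2, which makes PAPS, at 122 ± 13.8 and 117 ± 15.2 CPM. Of 14 genes of acetyl, methyl and amino acid conjugation, 1 was higher at the unadjusted p and fold limits, beside 2.64% of all genes tested, the arsenic methyltransferase As3mt, with 42.6 ± 8.11 CPM in Control and 53.2 ± 4.13 CPM in Mc1r LKO livers (log2 fold change 0.32 ± 0.13 SE).

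Of the 10 transporters that move conjugates and organic anions, none passed, although 8 had a log2 fold change below 0 and the median was -0.17. Abcc2, the canalicular exporter of glucuronides and glutathione conjugates, was at 613 ± 79.6 CPM in Control and 547 ± 29.7 CPM in Mc1r LKO livers (log2 fold change -0.16 ± 0.11 SE, edgeR adjusted p = 0.843). The uptake carrier Slco1a1, picked from the list with its values in view, followed the mice, with 170 CPM in mouse 181 and 306 CPM in mouse 182 against 21.2 to 82.5 CPM in the other 6 livers. Slco1b2 was also highest in these mice (1043 and 1092 CPM). Slco1a4 was not, at 53.8 and 46.8 CPM against 44.9 to 67.3 CPM in the other 6 livers.

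Among 18 regulators of conjugation genes, 1 was higher and 2 were lower at the unadjusted p and fold limits, beside 2.64% and 2.66% of all genes tested. Ahr, the aryl hydrocarbon receptor, was at 31.7, 27.0, 30.6 and 36.7 CPM in Control and at 46.5, 40.3, 39.5 and 39.5 CPM in Mc1r LKO livers, without overlap (log2 fold change 0.39 ± 0.11 SE). Its dimerization partner Arnt was lower, with 39.0 ± 4.12 CPM in Control and 32.0 ± 2.08 CPM in Mc1r LKO livers (log2 fold change -0.28 ± 0.10 SE). Mafg, a small Maf protein that pairs with Nrf2, was also lower, with 96.4 ± 7.23 and 78.9 ± 4.80 CPM and no overlap (log2 fold change -0.29 ± 0.09 SE). The adjusted p of each of the 3 was 0.734. Of 11 target genes of these receptors outside the conjugation enzymes, 2 were lower at the unadjusted p and fold limits, beside 2.66% of all genes tested. Cyp3a11, a target of PXR, was at 2956 ± 383 CPM in Control and 1938 ± 693 CPM in Mc1r LKO livers (log2 fold change -0.61 ± 0.23 SE), and Hmox1, a target of Nrf2, at 37.5 ± 6.91 and 27.5 ± 6.70 CPM (log2 fold change -0.44 ± 0.18 SE), both with an adjusted p of 0.734.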

How the data were processed

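The authors trimmed the reads with Trim Galore 0.6.6, aligned them to GRCm38 with STAR 2.7.6a and counted read pairs per gene with featureCounts 2.0.1 (strand option 2, Ensembl release 102), per the labels and the file headers. The deposited values are raw counts, 1 table for each liver, neither normalized nor filtered. A pair that lay only on exons shared by several genes, or one that aligned to several places, was counted for none. Gene symbols matched 55141 of 55487 identifiers.

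Genes with low counts were removed by filterByExpr (minimum count 10, total 15), libraries were scaled by TMM, and the quasi-likelihood test of edgeR 4.0.16 in R 4.3.3 was run, p-values being adjusted by Benjamini and Hochberg's method across 13400 genes. CPM are TMM-scaled, log2 CPM have a prior count of 2, and TPM use the exonic length of the tables. The study's methods name the filter, TMM, the fold limit of 0.25 and a p limit without saying that it was adjusted, and its results name an adjusted p, so both were used. Named were members with an unadjusted p under 0.05 or without overlap, the 3 highest TPM and the widest range of each family, and every tested Ugt1a gene. Gstm2, Gstm3, Gstm6, Gstm7, Gstt1, Gstt2, the Slco carriers and the 22 genes that followed mice 181 and 182 were picked with their values in view. Members and lists were chosen with earlier results of these data known. Mice were caged with littermates of their sex, some cages holding both genotypes, but which of these 8 shared a litter or cage is not given in the sources used here. Junctions, first exons and 100-base windows are from GENCODE transcripts of GRCm38, and promoter sequences are from RefSeq windows.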

Additional observations from a re-analysis of the deposited data

Results flagged for a closer look

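Among the 22 genes named by rule, the 4 mice of each genotype were searched for a single liver far from the other 3, by the ratio of its gap to the whole range (Dixon's test at the 95% level). This gave 6 such livers in 44 groups. Chance flags about 1 in 20 groups of a gene taken at random, but Ugt2b38 and Sult1e1 were among the genes named for the widest range between mice, so that rate is no yardstick for this number. In mouse 182, Ugt2b1 (643 CPM, against 270 to 307 CPM in the other Mc1r LKO livers), Ugt2b38 (2.81 CPM, against 0.484 to 0.715), Sult2a8 (707 CPM, against 210 to 265) and Sult1e1 (18.2 CPM, against 0.585 to 2.14) stood apart. In Control mice, Ugt2b1 stood apart in mouse 181 (554 CPM, against 295 to 338 CPM) and Mgst2, which was not tested, in mouse 159 (0.372 CPM, 4 counts).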

How the results depend on the processing

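Under the 8 alternatives with all mice (RLE, upper quartile or total count scaling, no filter, at least 10 counts in every mouse, DESeq2, limma-voom, 1 surrogate variable), in each of the 8 fits without 1 mouse and without both mice 181 and 182 (added after their values were seen), 0 conjugation enzymes passed an adjusted p of 0.05. Ugt1a6a was lower at the unadjusted limits in all of them, with adjusted p between 0.0697 (DESeq2) and 0.985 (without Control mouse 193). All of these fits reuse the livers in which Ugt1a6a was named, so they are not independent support. Gstt3 was higher at these limits in 7 of the 9 fits that kept all mice or left out both, and in 4 of the 8 without 1 mouse. The number higher at the unadjusted limits was 0 with total counts, 2 with the surrogate variable (Gstp3 and Mgst3) and 2 without mice 181 and 182, and the number lower was 2, 3 and 2. Over all genes the surrogate variable gave 496 higher and 527 lower, and leaving out both mice 437 and 428, in place of 354 and 357. Without 1 mouse the conjugation enzymes at these limits ranged from 0 to 3 higher and from 1 to 2 lower. Those without overlap numbered 5 higher and 2 lower without mice 181 and 182, beside 7% and 5.89% of all genes tested. Without 1 mouse they numbered 1 to 3 and 1 to 2, which is given without a share over all genes and is not read as a result. Groups of fewer mice separate more easily, so these counts cannot be set beside the 2.63% and 1.54% found with all mice. Over all genes, total counts gave 169 higher and 500 lower, the fits without 1 mouse 287 to 522 higher and 252 to 467 lower, DESeq2 called 16 at an adjusted p of 0.05 and no filter 1. The family medians moved by less than the spread between mice in every alternative. The median of Ugt2a and Ugt2b turned above 0 without Control mouse 159 or Mc1r LKO mouse 156 (range -0.19 to 0.02 over the fits without 1 mouse).

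Log2 fold changes of uncalled genes that changed sign were those of Ugt2b5 (-0.013), Ugt2b1 (-0.058), Gstm1 (-0.024) and Mgst1 (-0.024) with total counts, Ugt2b1 (-0.0098) with the upper quartile, Ugt2b36 with RLE (0.00024), DESeq2 (0.00036) and no filter (0.0037), Ugt2b1 with at least 10 counts in every mouse (-0.0019), Ugt2b1 (-0.050), Gstm1 (-0.028) and Sult2a8 (-0.025) with limma-voom, Ugt2b1 (-0.21), Sult2a8 (-0.27) and Sult1e1 (-0.61) with the surrogate variable, and Ugt1a5 (0.17), Ugt2b1 (-0.13), Sult2a8 (-0.21) and Sult1e1 (-0.18) without mice 181 and 182. Without 1 mouse the ranges that crossed 0 were -0.20 to 0.13 for Ugt1a5, -0.73 to 0.16 for Ugt1a9, -0.0015 to 0.10 for Ugt2b5, -0.026 to 0.028 for Ugt2b36, -0.39 to 0.25 for Ugt2b1, -0.19 to 0.25 for Gstm1, -0.62 to 0.11 for Gsta1, -0.021 to 0.090 for Mgst1, -0.50 to 0.37 for Sult2a8, -0.072 to 0.27 for Sult1d1 and -1.62 to 1.90 for Sult1e1. The cause was not tested.

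With 4 mice per genotype, standard errors of the log2 fold change ran from 0.08 to 1.08. The lowest count in a liver was 4 for Ugt1a7c, 7 for Ugt2b38, 8 for Gsta1 and 9 for Sult1e1. No paired analysis was possible because the genotypes share no mouse number.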
